A study of Homo sapiens with 6 samples.

Results

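A set of 40 genes of the G2 phase and of mitosis were followed in KMM1 cells, an established human multiple myeloma line, after forced expression of TAZ. TAZ, encoded by WWTR1, is the co-activator that the Hippo kinases hold out of the nucleus, and it works with TEAD factors on DNA. The genes were chosen by name as a list of cyclins, kinases, kinesins, centromere and spindle proteins, with earlier results of these data known. All 40 were found among the 57290 genes of the quantified annotation. All 40 also passed the filter of a mean of at least 1 TPM, a transcript level that allows for transcript length and library total, so that 40 of the 19390 tested genes belong to the set. In the TAZ group, KMM1 cells had received a lentivirus that carries TAZ. In the control group, the same line had received the lentivirus with the empty vector WPI. Each group holds 3 polyA RNA libraries taken 4 days after transduction. The promoter that drives TAZ and the share of cells transduced are not given in the sources used here. The labels do not say whether the 3 libraries of a group are separate cultures. A p-value then measures only how these libraries differ among themselves, which may be technical.

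A cell commits to mitosis when CDK1, bound to cyclin B, is released from its inhibitory phosphates by the CDC25 phosphatases. Genes of this stage are kept silent in resting cells by the DREAM complex, and are switched on late in the cycle by MYBL2 (B-MYB) on the MuvB core and then by FOXM1. Both kinds of control act through a short promoter element called CHR, often beside CCAAT boxes that bind NF-Y. In bulk RNA, fewer cells in G2 and mitosis and less of each transcript per cell cannot be told apart.

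The libraries held 1608, 1130.4 and 1230.05 megabases of aligned sequence in TAZ libraries 1 to 3, against 1719, 2033 and 1099.95 megabases in control libraries 1 to 3. WWTR1 stood at 365, 138 and 145 scaled TPM in the TAZ libraries, against 2.35, 1.21 and 1.40 in the controls (limma adjusted p = 0.000835), so the labels and the transgene go together. Scaled TPM is TPM divided by a factor per library. Correlations between libraries were 0.935 to 0.948 among the TAZ libraries, 0.897 to 0.939 among the controls, with control libraries 1 and 3 the least alike, and 0.878 to 0.918 between the groups. Plasma cell markers were present: PRDM1 stood at 63.9 to 66.4 scaled TPM in the TAZ libraries and at 75.9 to 95.3 in the controls, and SDC1 at 65.5 to 79.6 in the TAZ libraries and at 185 to 204 in the controls. Of the 10 plasma cell markers, 3 fell (IRF4, SDC1 and SLAMF7). On the log2 scale 7 of the 10 averaged lower with TAZ and 3 higher. The list summed to 2838 to 3234 scaled TPM in the TAZ libraries, against 2407 to 3131 in the controls. Much of that sum was IGJ, at 1691 to 2132 with TAZ and 1050 to 1224 in the controls. Of 8 markers of epithelial or packaging line cells 2 rose, KRT8 and KRT18, with KRT19 at 0.11 or less in every library. The list summed to 958 to 2294 with TAZ and 197 to 323 in the controls, mostly from KRT8, at 864 to 2217 and 120 to 210. CDH1 went the other way without being called, at 17.1, 28.4 and 30.15 with TAZ, against 52.2, 57.0 and 36.95 in the controls. EPCAM overlapped between the groups. In the same order of TAZ and control libraries, the sums were 6.50 to 7.19 and 2.13 to 2.69 for 7 markers of fibroblasts, of which DCN rose, and 2.78 to 3.48 and 1.82 to 2.51 for 7 markers of T and NK cells, of which 0 were called and NKG7 was listed at 0 throughout. They were 1.98 to 2.06 and 5.09 to 5.87 for 7 myeloid markers, of which CD14 fell and CD68 was listed at 0 throughout. Without scaling 1 plasma cell marker and 0 myeloid markers were called. The part of these genes in the results below was not tested.

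Transcript levels of the mitosis genes leaned towards lower values in the TAZ libraries, but no single gene of the set passed the test. Of the 40 genes, 0 rose and 0 fell at an adjusted p under 0.05 (limma, Benjamini-Hochberg adjustment over all tested genes). Over all 19390 genes 3.21% were called, 0.964% lower and 2.25% higher with TAZ. At an unadjusted p under 0.05 there were 8 of the 40 genes, 7 lower and 1 higher, against 18.0% of all genes, 10.5% lower and 7.46% higher. The log2 difference, TAZ minus control on log2(scaled TPM + 1), was below 0 for 33 of 40, against 54.8% of all genes, and its median was -0.37, against -0.05 for all genes. Weighting the libraries within limma, in 2 ways, called 16 and 8 of the 40, in fits that called 27.2% and 14.1% of all genes. Without control library 3 the count was 2 (KIF20A and UBE2C), where 3.96% of all genes were called.

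The size of the differences depends on the scaling between libraries. Scaling shifts all genes of a library by nearly the same amount, so the place of the set among all genes could hardly change. Without scaling, the median of all tested genes moved by 0.218, to 0.17, and the median of the mitosis genes to -0.14, with 27 of 40 below 0 against 35.1% of all genes. Relative to the median of all genes, the set stood at -0.32 with scaling and at -0.31 without. The scaled TPM of the 40 genes summed to 1619, 1476 and 1307 in the TAZ libraries, against 2129, 2215 and 1932 in the controls, which did not overlap. The sums without scaling were 1557, 1765 and 1606 TPM in the TAZ libraries, against 2116, 2092 and 1687 TPM in the controls, where TAZ library 2 lay above control library 3. With scaling the 2 groups did not overlap for 12 genes, 11 lower and 1 higher with TAZ, against 14.8% and 10.1% of all genes. Without scaling they did not overlap for 6, of which 5 were lower and 1 higher, against 5.67% and 15.7% of all genes. Those 6 were TPX2, CCNF, AURKA, CCNB1, CCNB2 and, higher, CENPA. TAZ library 1 was the lowest of the 6 libraries for 18 genes, TAZ library 2 for 5 and TAZ library 3 for 10.

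**Figure D1:**
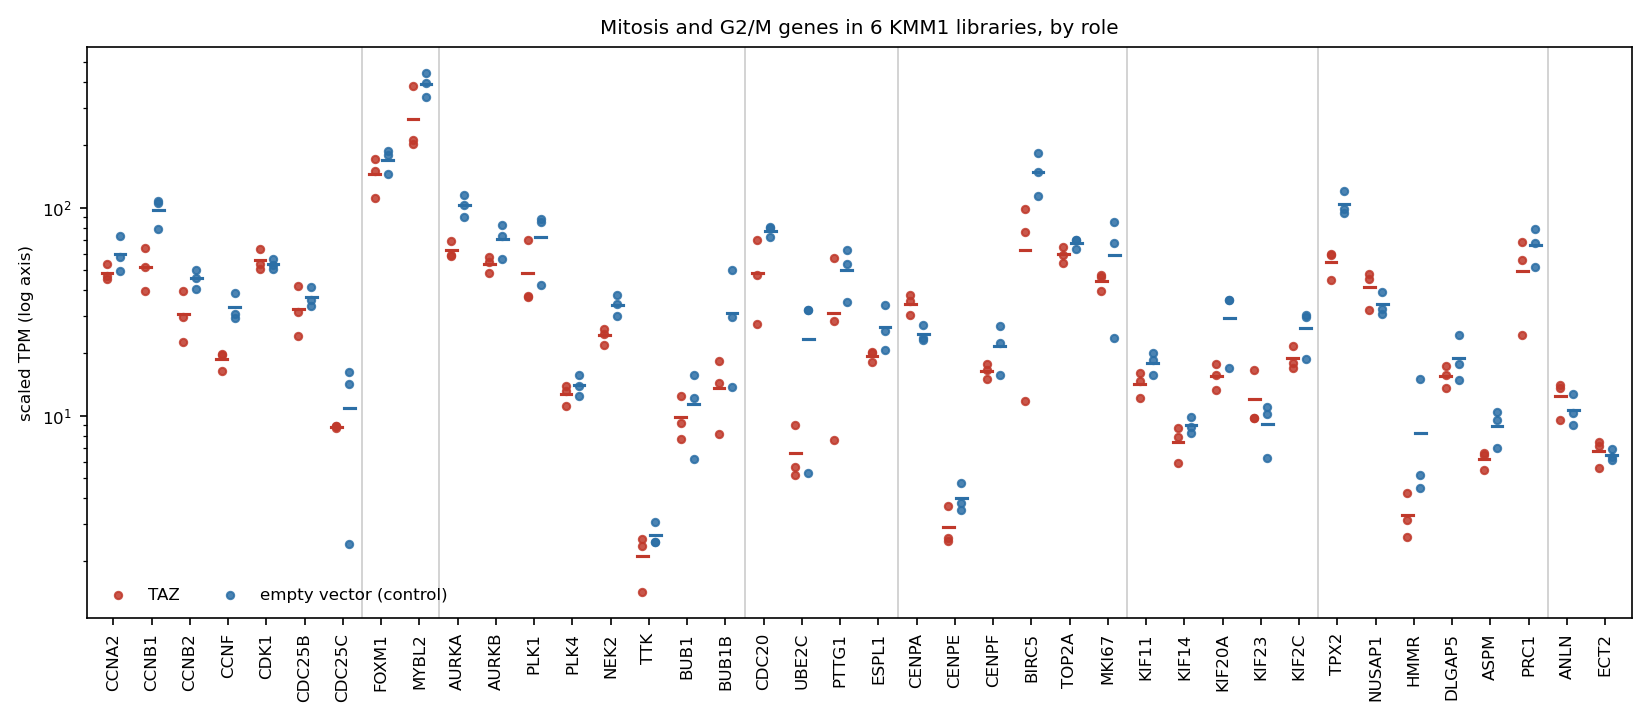
Scaled TPM (log axis) of the 40 genes by role, with TAZ libraries in red to the left of control libraries in blue; points are libraries and bars are group means (n = 3 each). MYBL2 and FOXM1 lie highest, and BIRC5, UBE2C, PTTG1, HMMR and CDC25C show single libraries far from their group.

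The promoters of the set were searched for the elements named above. RefSeq windows of GRCh38.p14 from 250 bases before to 50 bases after the start were found for 34 of the 40 genes, with 46 starts. TTTGAA, the commonest form of the CHR, or its reverse complement TTCAAA lay in 26 of the 46 windows (56.5%), against 15.2% of all 35116 windows. CCAAT or its reverse complement ATTGG lay in 34 (73.9%), against 34.6%, and both motifs in 22 (47.8%), against 5.90%. The TEAD motif GGAATG or CATTCC lay in 6 windows (13.0%), against 14.03%. The median log2 difference in level was -0.25 over the 23 genes with TTTGAA and -0.43 over the 11 genes without it. A match is a run of letters and not a bound site. The stretches printed are the 150 bases before the start of 5 genes among those with the smallest p. They show the paired motifs in CCNF, CCNB2 and CDC20, where scaled TPM in each TAZ library was below that in each control, and in CENPA, where it was above, and the CCAAT boxes without TTTGAA in CCNB1. None of the 5 genes passed the test. Capitals mark TTTGAA and CCAAT in either direction, no 2 matches overlap in these stretches, and all 5 genes lie on the plus strand: CCNF at chr16:2429297-2429446, CCNB2 at chr15:59104996-59105145, CDC20 at chr1:43358831-43358980, CENPA at chr2:26785906-26786055 and CCNB1 at chr5:69167000-69167149.
CCNF: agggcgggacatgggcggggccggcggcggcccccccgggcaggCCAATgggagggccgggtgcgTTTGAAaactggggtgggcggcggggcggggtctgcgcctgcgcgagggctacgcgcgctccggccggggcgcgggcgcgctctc
CCNB2: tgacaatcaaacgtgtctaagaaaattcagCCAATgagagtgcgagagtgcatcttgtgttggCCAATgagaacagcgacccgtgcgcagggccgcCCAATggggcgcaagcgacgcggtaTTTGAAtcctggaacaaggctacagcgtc
CDC20: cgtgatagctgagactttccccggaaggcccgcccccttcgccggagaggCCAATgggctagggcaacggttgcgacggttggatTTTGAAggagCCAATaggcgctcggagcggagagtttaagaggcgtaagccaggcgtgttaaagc
CENPA: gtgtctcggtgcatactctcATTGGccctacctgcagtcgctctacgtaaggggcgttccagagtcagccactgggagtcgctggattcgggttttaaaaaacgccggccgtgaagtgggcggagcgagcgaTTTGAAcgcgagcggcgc
CCNB1: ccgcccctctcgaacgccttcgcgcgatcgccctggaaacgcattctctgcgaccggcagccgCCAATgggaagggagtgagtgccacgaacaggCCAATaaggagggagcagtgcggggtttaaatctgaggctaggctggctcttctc

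Of the 7 cyclins, CDK1 and CDC25 phosphatases, 5 had a log2 difference below 0 (4 without scaling), all 4 cyclins among them, and 0 were called. CCNF, an F-box protein that marks partners for destruction in G2 (hg19 chr16:2479395-2508855), stood at 16.5, 19.9 and 19.5 scaled TPM in the TAZ libraries, against 29.6, 30.8 and 39.0 in the controls. Every TAZ library lay below every control, with a log2 difference of -0.79 ± 0.18 (SE; limma adjusted p = 0.0788). CCNB1, the cyclin that activates CDK1 at mitotic entry (chr5:68462837-68474072), stood at 51.5, 39.9 and 63.8 in the TAZ libraries, against 79.2, 105 and 107 in the controls. Its groups did not overlap either (-0.91 ± 0.23, limma adjusted p = 0.110), but the sign of this difference changed with the exons that were read, as described further on. CCNB2, a second B cyclin, stood at 39.9, 29.9 and 22.6 in the TAZ libraries, against 50.2, 40.8 and 46.0 in the controls, again with no overlap (-0.59 ± 0.24, limma adjusted p = 0.264).

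CDK1 itself, the kinase these cyclins serve, stood at 50.6, 63.2 and 53.6 scaled TPM in the TAZ libraries, against 50.7, 56.6 and 52.7 in the controls. The groups overlapped, with a difference of 0.06 ± 0.16 (limma adjusted p = 0.873). The ratio of B cyclin to kinase within a library does not involve the scaling: CCNB1 over CDK1 was 1.02, 0.631 and 1.19 in the TAZ libraries, against 1.56, 1.86 and 2.03 in the controls. CCNA2 over CDK1, for the cyclin of S phase and G2, was 0.897, 0.844 and 0.878 in the TAZ libraries, against 0.981, 1.02 and 1.38 in the controls. Neither ratio overlapped between groups, whereas CCNB2 over CDK1 did, at 0.421 to 0.788 and 0.720 to 0.990. The ratios were picked after the values had been seen and were not tested. CCNA2 and the phosphatases CDC25B and CDC25C overlapped between groups in level. Their log2 differences were -0.29, -0.22 and 0.04, and that of CDC25B was above 0 without scaling.

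The transcription factors of this stage were the most abundant members of the set. MYBL2 (chr20:42295754-42345136) stood at 383, 203 and 211 scaled TPM in the TAZ libraries, against 398, 444 and 339 in the controls. TAZ library 1 reached the control range and TAZ libraries 2 and 3 did not (-0.62 ± 0.29, limma adjusted p = 0.318). FOXM1 stood at 171, 150.2 and 112 in the TAZ libraries, against 145, 186 and 178 in the controls, which overlapped (-0.25 ± 0.22, limma adjusted p = 0.583), and its difference was 0.01 without scaling.

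All 8 mitotic kinases had a log2 difference below 0, from -1.03 (BUB1B) to -0.12 (PLK4), with 0 called. Without scaling 6 of the 8 did, and PLK4 and BUB1 lay above 0. AURKA, the kinase of centrosome maturation (chr20:54944445-54967393), stood at 69.0, 59.4 and 58.8 scaled TPM in the TAZ libraries, against 103, 115 and 90.1 in the controls. Its groups did not overlap (-0.71 ± 0.17, limma adjusted p = 0.0946). NEK2, which frees the paired centrosomes from each other, stood at 21.9, 24.8 and 26.1 in the TAZ libraries, against 34.4, 37.9 and 30.0 in the controls, with no overlap (-0.47 ± 0.17, limma adjusted p = 0.221). Without scaling NEK2 overlapped, at 21.1 to 32.1 TPM and 26.2 to 35.8 TPM. AURKB, the chromosomal passenger kinase, and PLK1, the polo kinase of mitotic entry, differed by -0.38 and -0.56, and the groups overlapped for each. The checkpoint kinases TTK, BUB1 and BUB1B also overlapped, and TTK had the lowest mean level of the set, 2.39 scaled TPM.

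The 4 genes of anaphase control had the lowest median difference of the 8 roles, -0.89, and the largest median SE, 0.495. Over the exons with depth in every library, a measure described further on, their median was -0.45, close to the -0.42 of the transcription factors. CDC20, which activates the anaphase promoting complex, stood at 69.7, 47.4 and 27.6 scaled TPM in the TAZ libraries, against 80.4, 79.6 and 72.0 in the controls. The groups did not overlap with scaling (-0.76 ± 0.33, limma adjusted p = 0.288) and overlapped without. The following members of this role were singled out after their values had been seen. UBE2C, the ubiquitin-conjugating enzyme of that complex, stood at 5.65, 5.15 and 8.995 in the TAZ libraries, against 32.3, 32.3 and 5.32 in the controls, so control library 3 lay with the TAZ libraries. Without that library, UBE2C differed by -2.17 and passed the test (limma adjusted p = 0.0139). Over the exons with depth in every library it stood at 3.94, 3.55 and 3.57 scaled depth per gigabase in the TAZ libraries, against 5.59, 4.70 and 3.58 in the controls (-0.25 ± 0.17, limma adjusted p = 0.470). Exon 3 of UBE2C, which that measure leaves out, had a depth of 0.051, 0.41 and 21.2 in the TAZ libraries, against 53.9, 91.1 and a listed 0 in the controls. PTTG1, the securin that holds separase in check, stood at 57.5, 28.5 and 7.66 in the TAZ libraries, against 35.0, 62.4 and 53.2 in the controls, with TAZ library 1 inside the control range and TAZ libraries 2 and 3 below it. ESPL1, separase itself, differed by -0.41 ± 0.21.

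Of the 6 centromere and chromosome proteins, CENPA alone had a difference above 0, and without scaling TOP2A and MKI67 did too. CENPA, the histone H3 variant that marks centromeres (chr2:26987157-27023935), stood at 35.5, 37.9 and 30.3 scaled TPM in the TAZ libraries, against 23.1, 23.7 and 27.1 in the controls. The groups did not overlap with or without scaling (0.47 ± 0.17, limma adjusted p = 0.218). BIRC5, or survivin, the passenger protein that also opposes cell death (chr17:76210267-76221717), stood at 11.7, 98.4 and 76.4 in the TAZ libraries, against 183, 148 and 114 in the controls. It had the lowest difference of the 40 genes and the widest error, -1.67 ± 0.76 (limma adjusted p = 0.311), and TAZ library 1 lay far below the other TAZ libraries. Without TAZ library 1 the difference was -0.74.

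MKI67, the gene of the Ki-67 proliferation antigen, stood at 47.3, 46.4 and 39.6 scaled TPM in the TAZ libraries, against 85.5, 23.6 and 67.9 in the controls. Control library 2 was the lowest of all 6 libraries and the groups overlapped (-0.22 ± 0.46, limma adjusted p = 0.830). TOP2A, the topoisomerase that untangles sister chromatids, had the smallest error of the set (-0.18 ± 0.15) and was 0.08 without scaling. CENPE, a kinesin of the kinetochore, and CENPF, a kinetochore protein, differed by -0.37 and -0.35 and overlapped between groups.

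Of the 5 mitotic kinesins, 4 had a difference below 0 with and without scaling. KIF20A, the kinesin of the central spindle, stood at 13.3, 17.7 and 15.7 scaled TPM in the TAZ libraries, against 35.9, 35.8 and 16.9 in the controls, where control library 3 lay within the TAZ range (-0.82 ± 0.32, limma adjusted p = 0.253). Without control library 3 KIF20A differed by -1.17 and passed the test (limma adjusted p = 0.0319). Over the exons with depth in every library it stood at 12.8, 14.6 and 15.0 scaled depth per gigabase in the TAZ libraries, against 24.6, 21.3 and 14.7 in the controls (-0.46 ± 0.21, limma adjusted p = 0.285). KIF23, a partner in the centralspindlin complex of the midzone, stood at 9.74, 9.71 and 16.6 in the TAZ libraries, against 10.97, 6.24 and 10.2 in the controls. Only TAZ library 3 lay above the control range (0.35 ± 0.29, limma adjusted p = 0.557). KIF11, the motor that pushes the spindle poles apart, KIF14, a motor of cytokinesis, and KIF2C, which takes microtubules apart at kinetochores, differed by -0.32, -0.24 and -0.43 and overlapped.

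Among the 6 spindle and midbody proteins, TPX2 had the smallest p of the whole set. TPX2, the spindle assembly factor that activates AURKA (chr20:30327074-30389608), stood at 60.0, 58.9 and 44.7 scaled TPM in the TAZ libraries, against 98.9, 120.4 and 93.7 in the controls. The groups did not overlap with or without scaling (-0.93 ± 0.19, limma adjusted p = 0.0631). ASPM, a protein of the spindle poles, stood at 5.50, 6.48 and 6.60 in the TAZ libraries, against 10.4, 9.49 and 6.96 in the controls. It did not overlap with scaling (-0.45 ± 0.19, limma adjusted p = 0.283) and overlapped without.

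NUSAP1, a microtubule-bundling protein, was among the 3 genes with the highest differences, at 32.0, 47.8 and 45.3 in the TAZ libraries, against 30.8, 39.4 and 32.5 in the controls. The groups overlapped, since TAZ library 1 lay within the control range (0.26 ± 0.21, limma adjusted p = 0.545). HMMR, which binds hyaluronan and the spindle, had one high control library, at 15.0, against 4.50 and 5.16 in the other controls and 2.603 to 4.23 with TAZ. DLGAP5 and PRC1, which stabilise kinetochore fibres and bundle midzone microtubules, differed by -0.25 and -0.51 and overlapped. ANLN and ECT2, which build the cleavage furrow, differed by 0.19 and 0.05 and overlapped too.

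**Figure D2:**
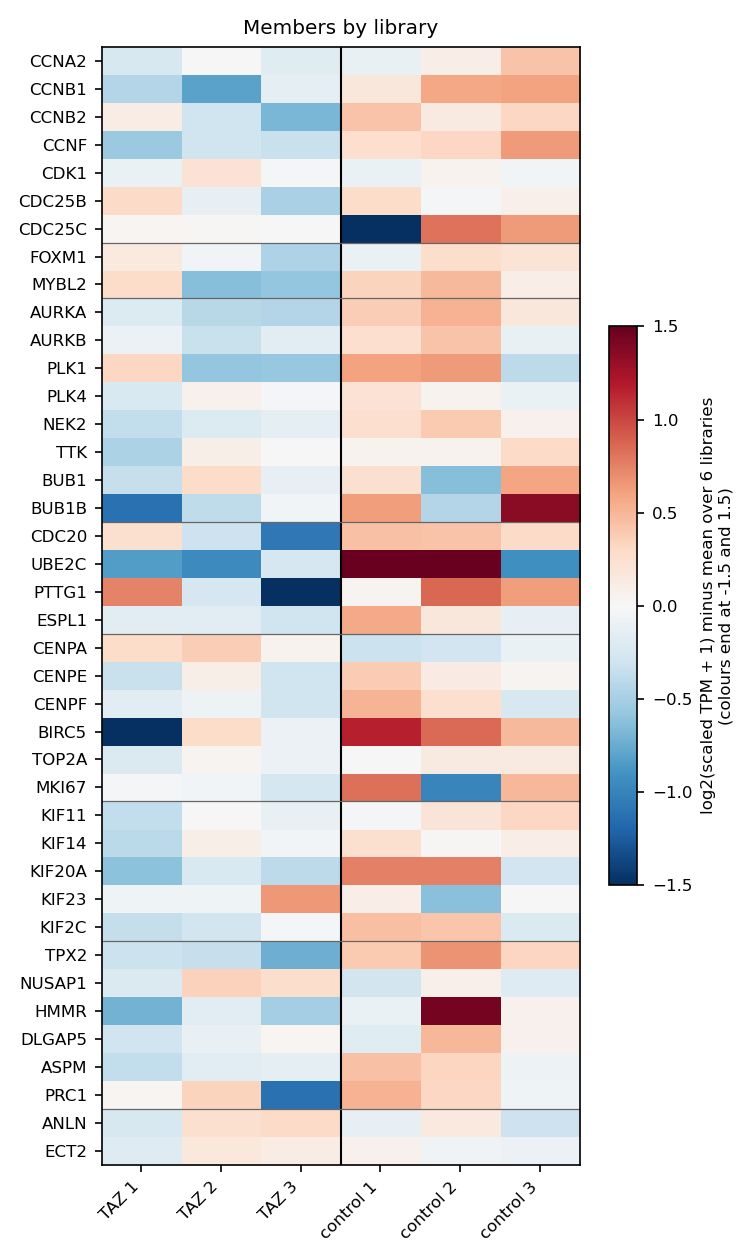
Log2(scaled TPM + 1) of each gene in each library minus its mean over the 6 libraries, with TAZ libraries left of the line and control libraries right of it, and rows grouped by role. Most rows are blue on the left and red on the right, while single cells break the pattern: BIRC5 in TAZ library 1, PTTG1 in TAZ library 3, UBE2C in control library 3, MKI67 in control library 2 and CDC25C in control library 1.

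In several genes the library that stood apart had lost the depth of a single exon. For each gene the transcript with the highest mean TPM was taken, and the read depth on each of its exons was summed over all transcripts of the gene. Of the 672 exons of the 40 transcripts, 299 (44.5%) had a depth under 1 in every library, against 39.1% of the exons of all tested genes, and 195 (29.0%) had a depth of 1 or more in every library, against 31.3%. A further 113 exons (16.8%), in 36 of the 40 genes, had a depth of at least 10 in one library and under 1 in another, against 10.4%. Depths are mean reads per base, not divided by the size of the library, and exons are counted from the lowest hg19 coordinate.

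In MKI67 this was one long exon. Its exon 3 (chr10:129900843-129907687), the longest of the 15 with 6845 bases, had a depth of 48.8, 38.0 and 35.7 in the TAZ libraries, against 100.4, 0.013 and 45.5 in control libraries 1, 2 and 3. In control library 2, which held the most aligned sequence, the neighbouring exons 1 and 2 had depths of 79.6 and 119. They had 67.6 and 112 in control library 1, and 42.1 and 67.2 in control library 3. The low TPM of MKI67 in control library 2 thus came with full depth on the exons beside it. BIRC5 was alike in TAZ library 1: exon 5 (chr17:76219546-76221717, 2172 bases) had 0.138, 66.6 and 62.8 in the TAZ libraries, against 196, 177 and 76.3 in the controls. This exon held 99.1% of the bases on the BIRC5 transcript.

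Of these 113 exons, 26 were under a depth of 1 in exactly 1 library. Exon 1 of PRC1 (chr15:91509270-91510432) had 75.2, 60.6 and 0.072 in the TAZ libraries, against 111, 137 and 48.8 in the controls. Exon 3 of PTTG1 (chr5:159849716-159849900) had 140.5, 22.2 and 0.037 in the TAZ libraries, against 102, 225 and 112 in the controls. Exon 1 of CDC25C (chr5:137620954-137621530) had 20.6, 16.5 and 14.9 in the TAZ libraries, against 0.475, 42.7 and 14.9 in the controls. In each of these the library missing the exon is the one with the lowest TPM of the gene. These examples were picked after the values had been seen.

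An exon that came and went split the groups exactly in 3 cases of the 113, 1 with depth in the TAZ libraries only and 2 with depth in the controls only. At large the same shares were 1.40% and 1.01% of such exons. CCNB1 holds 2 of the 3: exon 1 (chr5:68462837-68463110) had 0.785, 0.884 and 0.019 in the TAZ libraries, against 38.8, 48.3 and 39.5 in the controls. Exon 4 (chr5:68467097-68467279) was listed at 0 in all TAZ libraries, against 231, 391 and 174 in the controls. The longest CCNB1 exon, exon 9 (chr5:68473351-68474072), did not follow: it had 39.7, 40.7 and 50.3 in the TAZ libraries, against 32.6, 52.2 and 32.5 in the controls. The third case is exon 4 of CENPA (chr2:27016013-27016194), with 55.3, 45.6 and 42.8 in the TAZ libraries and a listed 0 in all controls. Exon 5 of CENPA (chr2:27016680-27017461) had 32.3, 31.3 and 27.8 in the TAZ libraries, against 34.1, 41.6 and 23.1 in the controls. The cause of these gaps was not tested.

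**Figure D3:**
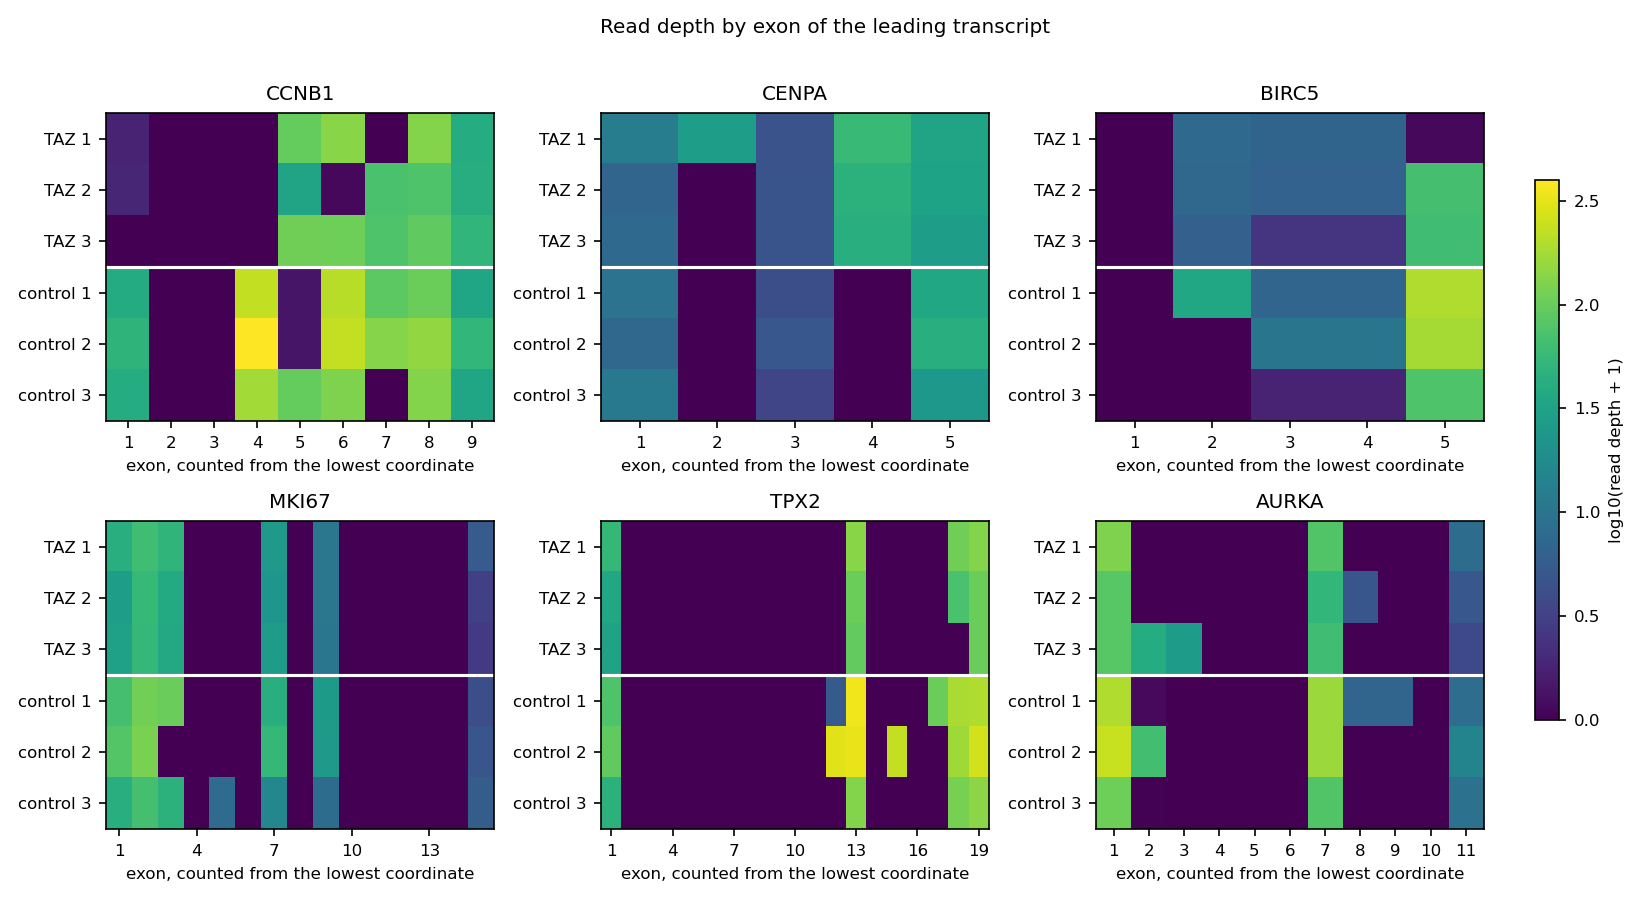
Read depth by exon, as log10(depth + 1), for CCNB1, CENPA, BIRC5, MKI67, TPX2 and AURKA, with the 3 TAZ libraries above the white line and the 3 control libraries below it. Exons 1 and 4 of CCNB1 are dark in all TAZ libraries, exon 4 of CENPA is dark in all controls, and exon 5 of BIRC5 and exon 3 of MKI67 are dark in 1 library each.

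The genes were therefore measured again over the exons with a depth of at least 1 in every library, an alternative chosen after the data had been seen. The depth over these exons was taken per gigabase of aligned sequence and scaled as the TPM was, and 15246 genes had such an exon, among them 39 of the 40 (all but BIRC5). By this rule an exon under a depth of 1 in any library was left out, also where a whole group lacked it. Again 0 of the 39 were called, against 3.43% of all these genes. At an unadjusted p under 0.05 there were 14, 12 lower and 2 higher with TAZ, against 19.1% of all. The median difference was -0.28, against 0.00 for all genes, and 29 of 39 lay below 0, against 49.6%. The groups did not overlap for 14 genes, 13 lower and 1 higher with TAZ, against 12.8% and 12.5% of all. The sign was that of the TPM measure for 34 of the 39.

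MKI67 looked different in the 2 measures. Over the common exons it had a scaled depth per gigabase of 21.3, 20.0 and 19.4 in the TAZ libraries, against 32.0, 31.3 and 30.5 in the controls. Both groups were tight and far apart, at -0.60 ± 0.13 (limma adjusted p = 0.0547), where TPM had given -0.22 ± 0.46. TPX2 stood at 71.8, 72.4 and 64.0 in the TAZ libraries, against 108, 113 and 108 in the controls. It kept its place with a smaller difference, -0.65 ± 0.13 (limma adjusted p = 0.0535). AURKA stood at 58.6, 50.6 and 47.4 in the TAZ libraries, against 82.2, 86.0 and 73.8 in the controls, at -0.62 ± 0.15 (limma adjusted p = 0.0830). CCNF followed at -0.73 ± 0.18 (limma adjusted p = 0.0841), with 8.62 to 11.6 in the TAZ libraries, against 16.0 to 21.2 in the controls.

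FOXM1 and PLK1, which overlapped between groups in TPM, did not overlap here. FOXM1 had 79.3, 64.6 and 59.4 in the TAZ libraries, against 92.8, 87.9 and 83.0 in the controls (-0.38 ± 0.16, limma adjusted p = 0.258). PLK1 had 54.5, 50.8 and 49.5 in the TAZ libraries, against 64.0, 73.1 and 83.2 in the controls (-0.49 ± 0.15, limma adjusted p = 0.150). AURKB, KIF2C, CENPE, NEK2, CCNB2, CDC20 and HMMR were the others with no overlap and lower values with TAZ. Their differences ran from -0.74 (CDC20) to -0.33 (CENPE).

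CCNB1 turned round. It had 33.5, 38.0 and 42.9 in the TAZ libraries, against 23.7, 32.0 and 42.8 in the controls, which overlapped (0.24 ± 0.23, limma adjusted p = 0.590). This value rests on 2 of the 9 exons of CCNB1, and exons 1 and 4 are not among them. CENPA shrank to 0.14 ± 0.15, with 16.1, 19.2 and 16.0 in the TAZ libraries, against 14.4, 14.6 and 17.3 in the controls. PRC1 turned to 0.62 ± 0.20 (limma adjusted p = 0.174), with 24.0, 31.3 and 27.6 in the TAZ libraries, against 21.2, 13.4 and 18.8 in the controls, the only gene of the set with no overlap and higher values with TAZ in this measure. The PRC1 value leaves out exon 1, which was under a depth of 1 in TAZ library 3 and held 63.9% of the bases on the transcript. BUB1, BUB1B and ECT2 also changed sign, at 0.87, 0.26 and -0.07, over 1 of 24, 6 of 23 and 2 of 25 exons. CDK1 had 24.9, 45.2 and 37.6 in the TAZ libraries, against 21.6, 33.5 and 36.1 in the controls, so over common exons neither side of the CCNB1 to CDK1 ratio was separated between the groups.

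**Figure D4:**
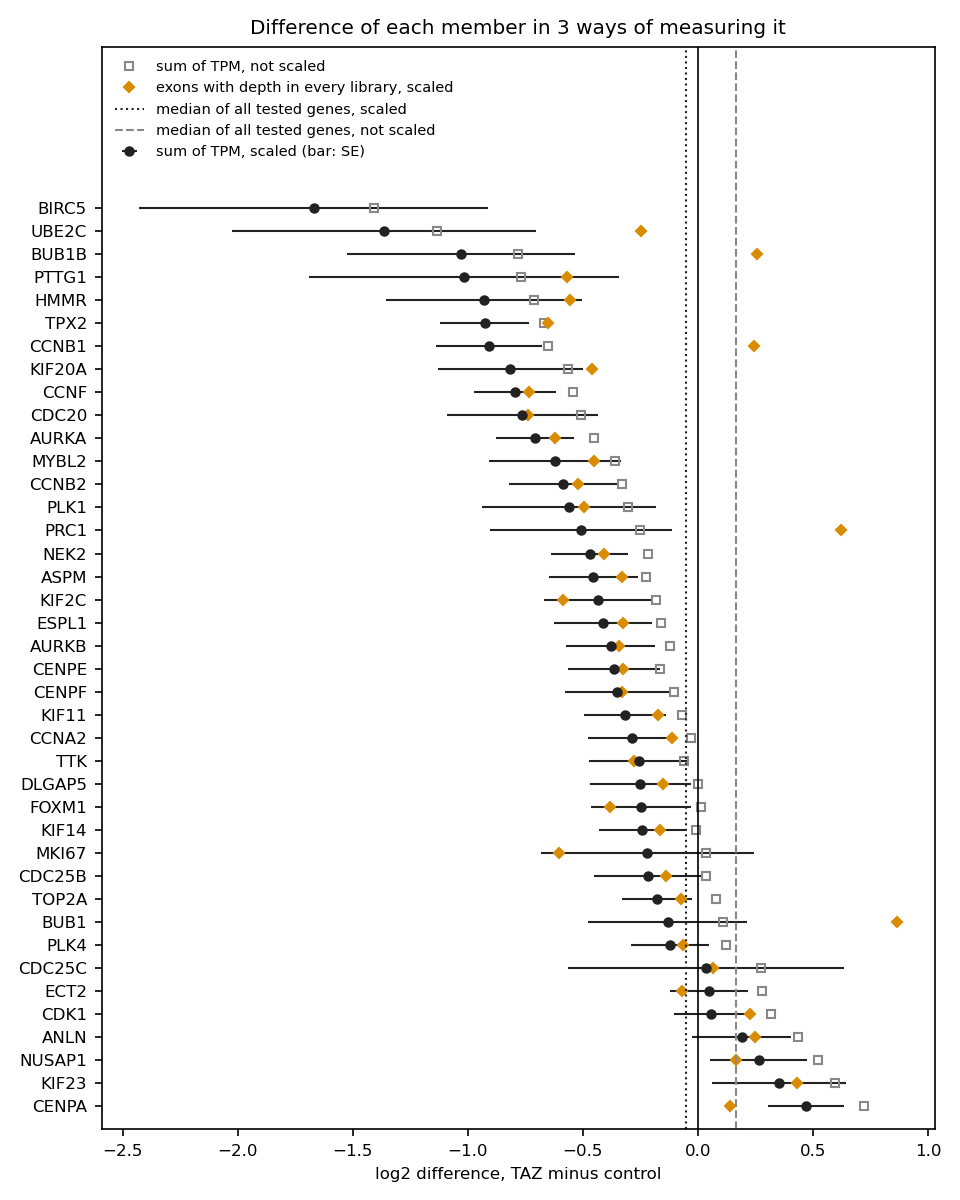
Log2 difference of each gene, TAZ minus control, from scaled TPM (black circles with SE), TPM without scaling (open squares) and the exons with depth in every library (orange diamonds). The black circles of CCNB1, BUB1B, BUB1 and PRC1 lie below 0 and their diamonds above it, while TPX2, CCNF, AURKA and CDC20 stay below -0.4 in all 3 measures.

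The transcript that led a gene also varied. Of the 324 transcripts annotated for the 40 genes, 1 transcript led in all 6 libraries for 27 genes, and more than 1 did for 13: BIRC5, BUB1B, CDC20, CDK1, DLGAP5, ECT2, FOXM1, HMMR, KIF20A, KIF23, NUSAP1, PTTG1 and UBE2C. BUB1B, HMMR and UBE2C had 3 different leaders each. The bases behind each value ran from 4.16 aligned kilobases (UBE2C in control library 3) to 1092 (MYBL2 in control library 2), and UBE2C, TTK, CDC25C, PTTG1, HMMR and BIRC5 had under 10 kilobases in at least 1 library. The median SE of the 40 genes was 0.219 on the log2 scale, from 0.154 to 0.758, against a median of 0.242 over all genes.

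Other genes, of the same machinery and of DNA replication and G1/S, were taken from 7 lists of 173 genes that do not include the 40. Of the 170 tested, 1 rose and 0 fell, and the median difference was -0.27, or -0.01 without scaling. With the list of DNA replication and G1/S left out, the median of the 133 tested genes was -0.21, or 0.04 without scaling. The counts below 0 that follow are with scaling, where 54.8% of all genes lay below 0. The medians without scaling stand beside a median of 0.17 over all tested genes. The one that rose was MYBL1 (A-MYB), the relative of MYBL2 best known from the testis and from germinal centre B cells. MYBL1 stood at 12.4, 17.6 and 16.3 scaled TPM in the TAZ libraries, against 3.81, 3.52 and 2.01 in the controls. Every TAZ library lay above every control (2.01 ± 0.24, limma adjusted p = 0.00807), also over common exons (2.08). Its list, the DREAM and MuvB complex, had a median of -0.02 over 12 genes, or 0.23 without scaling. TFDP2, the E2F partner, had the next smallest p of that list, at -1.49 ± 0.33 (limma adjusted p = 0.0744).

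Of 34 tested genes of the spindle checkpoint and kinetochore, 24 lay below 0 and the median was -0.17, or 0.08 without scaling. HJURP, the chaperone that loads CENPA, differed by -0.85 ± 0.18 (limma adjusted p = 0.0690), at 18.4, 19.5 and 18.7 in the TAZ libraries, against 39.1, 38.6 and 28.0 in the controls. CENPA itself thus stood above its controls in TPM where its chaperone stood below. Over common exons CENPA differed by 0.14 ± 0.15 and its groups overlapped, while HJURP differed by -0.74. Neither gene passed the test. CENPM, of the inner kinetochore, differed by -1.48 ± 0.33 (limma adjusted p = 0.0788). Of 23 genes of condensin, cohesin and chromosome structure 19 lay below 0, with a median of -0.31, or -0.08 without scaling. SMC4, a core subunit of condensin, was an exception, at 61.2, 94.2 and 81.3 in the TAZ libraries, against 46.6, 44.2 and 27.9 in the controls (0.99 ± 0.27, limma adjusted p = 0.126). NCAPD2, another condensin subunit, went the other way at -0.53 ± 0.14 (limma adjusted p = 0.124).

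Of 15 subunits and partners of the anaphase promoting complex 8 lay below 0, with a median of -0.04, or 0.22 without scaling. The smallest p-values there belonged to ANAPC10 (-0.48) and CDC26 (0.47). The 18 genes of entry control had a median of -0.40, or -0.14 without scaling, and CKS1B, a small CDK-binding protein, and GTSE1 differed by -0.48 and -0.79. The 31 tested genes of spindle, centrosome and cytokinesis had a median of -0.32, or -0.06 without scaling, led by CDCA2 (-0.59) and CDCA3 (-0.83). Outside mitosis, 37 genes of DNA replication and G1/S had a median of -0.35, or -0.09 without scaling. Of these 28 lay below 0 and 14 had an unadjusted p under 0.05, all 14 lower with TAZ, against 10.5% of all genes. GINS2, a subunit of the replicative helicase, differed by -0.89.

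**Figure D5:**
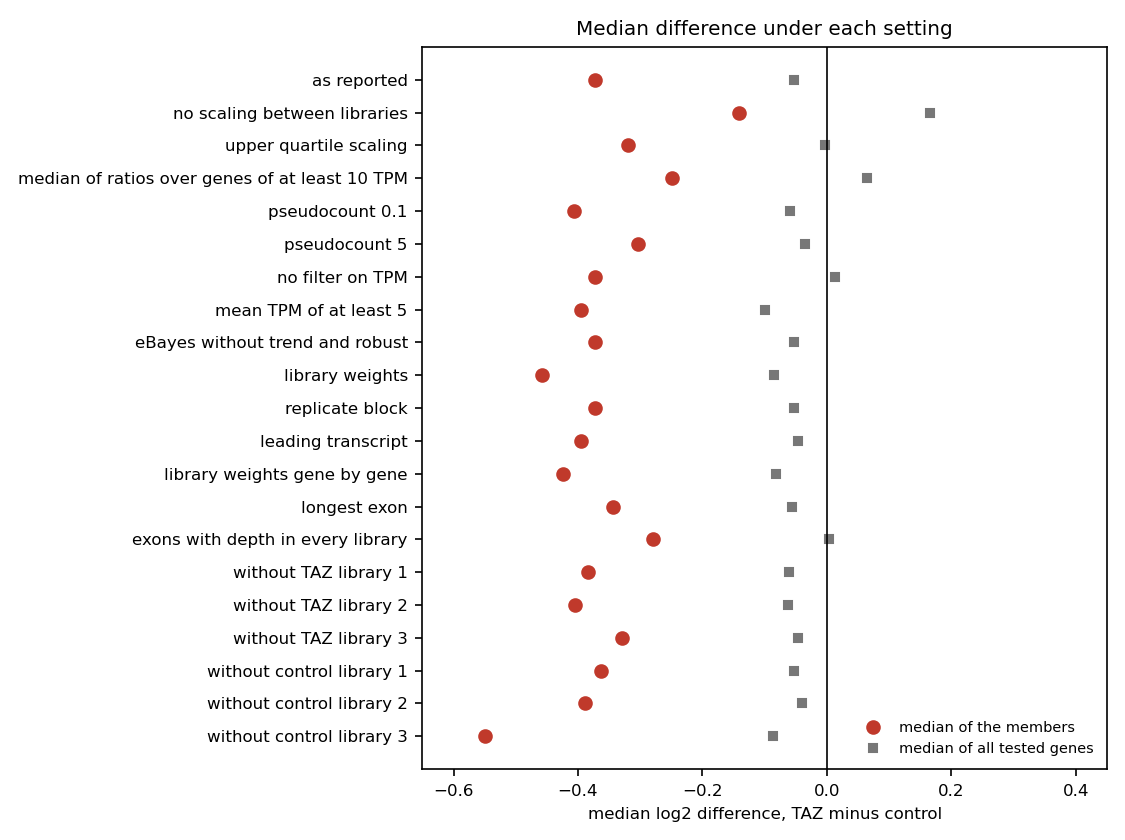
Median log2 difference, TAZ minus control, of the 40 genes (red circles) and of all tested genes (grey squares) under each setting. The red circles run from -0.55 to -0.14 and lie to the left of the grey squares in every setting shown.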

How the data were processed

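PolyA RNA of 3 TAZ and 3 control libraries was sequenced on an Ion Torrent Proton instrument, per the labels' protocols; the pairs of libraries that ran on one chip are not named in them. Per the submitters' processing notes, STAR 2.3.0, Bowtie2 2.0.0 and StringTie 1.3.3b were used with hg19. Per the file headers, StringTie ran once per library on a supplied annotation, and neither its release nor any strand setting is stated there. The authors deposited coverage, FPKM and TPM for 195984 transcripts and coverage for each exon, and no counts were used. TPM was summed over the transcripts of a gene and scaled by the median of each library's ratios to the geometric means of the genes. Aligned bases came from the ratio of deposited coverage to deposited FPKM. Reads shared by near-identical or overlapping genes may be split between them.

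Genes averaging 1 TPM or more were fitted with limma 3.58.1 in R 4.3.3 (eBayes with trend and robust) on log2(scaled TPM + 1), which understates changes of low genes, and p was adjusted by Benjamini-Hochberg over all of them at 0.05. The procedure was tested on simulated data. Each group has n = 3, and levels in the text are of scaled TPM unless stated. Values in every library were given for the 10 genes with the smallest p, the 3 most abundant, the 3 with the highest differences, and FOXM1, MYBL2, CDK1, CCNB1 and MKI67. From each list of other genes those called were named, or the 2 with the smallest p. The members and lists were chosen with earlier results of these data known. Alternatives were other scalings, pseudocounts and filters, eBayes without trend and robust, library weights, a replicate block, the leading transcript, other exon choices and leaving out each library.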

Additional observations from a re-analysis of the deposited data

How the results depend on the processing

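Of the 40 genes, 24 kept one direction in all 20 other settings that gave a value and 16 did not. Signs changed in 37 values, and 0 of those passed the test. Without scaling, the median of the set was -0.14, and CDC25B (0.0365), FOXM1 (0.0145), TOP2A (0.0809), PLK4 (0.12), MKI67 (0.0373) and BUB1 (0.11) lay above 0. The median of all tested genes was then 0.17. With factors from genes of at least 10 TPM, the median was -0.25 and PLK4 stood at 0.009. With a pseudocount of 5, CDC25C was -0.0591. Library weights called 16 of the 40 (5274 of all genes; the estimate of the weights did not converge), with MKI67 at 0.64, BUB1 at 0.54 and CDC25C at -0.61. Weights estimated gene by gene, added after seeing the data, called 8 (2734 of all genes), with MKI67 at 0.36, BUB1 at 0.36 and CDC25C at -0.38. Weights were lowest for control library 3 and highest for control library 2. On the leading transcript, FOXM1 was 0.96, ECT2 -0.90, NUSAP1 -1.26, BUB1B 1.11 and UBE2C 0.0507. Over the longest exon, also added, ECT2 was -0.042, DLGAP5 0.0846, CCNB1 0.29, MKI67 1.10, BUB1B 0.49, PLK1 1.00 and BUB1 0.77. Over exons with depth in every library, ECT2 was -0.0674, CCNB1 0.24, BUB1B 0.26, BUB1 0.87 and PRC1 0.62.

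With one library left out, the count called ran from 0 to 2, in fits that called 1.44% to 3.96% of all genes, and the median from -0.55 (without control library 3) to -0.33 (without TAZ library 3). ECT2 ran from -0.0204 to 0.15, MKI67 from -0.77 to 0.14, CDC25C from -0.71 to 0.46, BUB1 from -0.48 to 0.13 and CDK1 from -0.0357 to 0.12. The cause of these changes was not tested.

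Libraries of the 2 groups share replicate numbers, but same-numbered libraries did not deviate together (correlations from -0.05 to 0.004), so the numbers were not used as pairs. These correlations cannot tell whether same-numbered libraries were prepared together. With the number as a replicate block, 0 of the 40 were called and the median stayed at -0.37, while the count over all genes was 236, against 623 without the block. The number of genes called over all genes was 352 with no filter on TPM. With 3 libraries a group and a median SE of 0.219, small differences of these genes were not detectable. Larger ones did not pass either, such as TPX2 at -0.93 (limma adjusted p = 0.0631) and BIRC5 at -1.67 (limma adjusted p = 0.311).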
